A study of Homo sapiens with 4 samples.

Results

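The genes described here serve intracellular cholesterol traffic: the sterol transporter genes GRAMD1A, GRAMD1B and GRAMD1C, the lysosomal exit genes NPC1 and NPC2, the carrier genes STARD3 and OSBP, the esterification gene SOAT1, and the liver X receptor genes NR1H2 and NR1H3. They are 10 of the 58735 genes in the deposited count table, matched by gene name, and all 10 passed the filter on low counts that left 15313 tested genes. GRAMD1B was chosen by its large log2 fold change in these libraries, so its change is described with no test. The other 9 were listed by function, with earlier results of these data known.

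RNA was sequenced from Hey-A8, a human ovarian cancer cell line, in 2 libraries labelled shSPTLC2 and 2 labelled shCON. The shSPTLC2 cells carry a short hairpin RNA labelled as a knockdown of SPTLC2, and the shCON cells carry a negative control hairpin. The labels conflict: titles and design text describe a stable SPTLC2 knockdown, whereas the treatment protocol names plasmids against ZDHHC15, transfected transiently. The number of hairpins or clones is not stated, nor whether replicates are separate cultures, so every p-value measures only the spread between these libraries, which may be technical.

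Total counts ran from 14464800 to 15085000 per library. SPTLC2 had 587 and 662 counts in shSPTLC2 replicates 1 and 2, against 871 and 884 in shCON replicates 1 and 2, a log2 fold change of -0.52 ± 0.12 (SE; edgeR adjusted p = 0.0063). Leaving out either shSPTLC2 library ended that call: edgeR's adjusted p was 0.134 with replicate 1 dropped and 0.0519 with replicate 2 dropped. ZDHHC15 had 0 counts in every library, which allows up to 0.195 to 0.206 CPM (counts scaled to library size). Mitochondrial transcripts took 10.1% and 8.56% of the counts in the shSPTLC2 libraries, against 5.46% and 6.39% in the shCON libraries, and the part of this shift in the results below was not tested. These are bulk libraries, in which fewer cells of a type and less RNA per cell cannot be told apart. Of 8 markers looked up for the line, PAX8, KRT7, KRT8, KRT18 and VIM were abundant and WT1 was low (6.45 to 10.4 CPM), while EPCAM stayed under 0.7 CPM and MUC16 had 1 count in all. Of 5 markers of other cell types, PTPRC, COL1A2 and ALB had at most 2 counts in any library. PAX8 itself was higher in shSPTLC2 (0.73; edgeR adjusted p = 0.000444). The other cell-type markers moved: COL1A1 had 6.26 and 4.95 CPM in shSPTLC2, against 1.55 and 2.33 CPM in shCON, and PECAM1 had 0.408 and 0.782 CPM in shSPTLC2, against 2.09 and 1.85 CPM in shCON. Their part in the results below was not tested.

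As background, cells take up cholesterol in lipoproteins and free it in the lysosome, where NPC2 binds the sterol in the lumen and NPC1 passes it through the membrane. STARD3 and OSBP then move sterol at contacts between organelles, and the GRAMD1 proteins (Aster-A, Aster-B and Aster-C), anchored in the endoplasmic reticulum, carry cholesterol inward from the plasma membrane. There SOAT1 esterifies the excess for storage, and oxysterols activate the liver X receptors, which turn on genes of cholesterol efflux. Serine palmitoyltransferase, of which SPTLC2 is a subunit, begins the synthesis of sphingolipids, and sphingomyelin holds cholesterol in the plasma membrane.

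RefSeq promoter windows (build GRCh38.p14, 250 bases before to 50 after a start) were found for 9 of the members, all but GRAMD1B, with 14 windows among them. The windows of 3 genes are shown because they hold a GC-rich and a GC-poor window of GRAMD1 genes and a start of the one member called by the test. Capitals mark the GC box GGGCGG on either strand. GRAMD1A lies at chr19:35000073-35000372 on the plus strand (the second of its windows), GRAMD1C at chr3:113897250-113897549 on the plus strand and NPC1 at chr18:23586457-23586756 on the minus strand.
GRAMD1A: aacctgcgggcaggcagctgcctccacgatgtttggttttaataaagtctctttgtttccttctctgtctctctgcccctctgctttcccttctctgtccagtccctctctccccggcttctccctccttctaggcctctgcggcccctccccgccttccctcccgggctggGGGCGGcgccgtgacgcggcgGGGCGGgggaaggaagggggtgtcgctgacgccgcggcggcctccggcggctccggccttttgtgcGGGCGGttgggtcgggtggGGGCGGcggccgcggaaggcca
GRAMD1C: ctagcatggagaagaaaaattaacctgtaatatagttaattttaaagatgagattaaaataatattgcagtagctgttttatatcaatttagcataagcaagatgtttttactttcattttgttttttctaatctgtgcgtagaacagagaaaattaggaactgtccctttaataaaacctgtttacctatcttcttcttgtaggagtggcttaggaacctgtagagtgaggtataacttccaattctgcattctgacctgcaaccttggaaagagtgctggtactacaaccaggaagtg
NPC1: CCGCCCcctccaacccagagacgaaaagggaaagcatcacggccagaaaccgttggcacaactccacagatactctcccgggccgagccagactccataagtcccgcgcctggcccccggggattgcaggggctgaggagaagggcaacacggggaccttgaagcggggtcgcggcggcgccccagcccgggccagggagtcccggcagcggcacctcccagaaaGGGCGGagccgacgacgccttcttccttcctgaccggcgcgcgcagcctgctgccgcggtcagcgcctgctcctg
The GRAMD1A window shown is 69.0% G or C with 28 CpG dinucleotides, and the NPC1 window is 69.7% with 29. The other GRAMD1A window, not shown, is 57.7% with 7. The GRAMD1C window is 34.0% with 1 CpG, against a median of 58.7% G or C over all 35116 windows. All 3 windows shown lie inside their gene's interval in the count table, downstream of its first base, which for GRAMD1C is base 113828182. The GC box stood in 11 of the 14 member windows, against 45.0% of all windows, and CCAAT in 5 of the 14, against 34.6%. The 14 windows come from 9 genes, and windows of NPC2 and of NR1H3 overlap, so these shares are no result about the members. The sterol regulatory element core TCACNCCAC, the motif bound by SREBP factors, was in 0 of the 14 member windows and in 1.13% of all windows. The nuclear receptor core AGGTCA was in 3 of the 14 and in 13.8% of all windows. Both strands were searched, and the absence of a match says only that these letters are not in these windows.

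GRAMD1B encodes Aster-B, which moves plasma membrane cholesterol to the endoplasmic reticulum. GRAMD1B (ENSG00000023171, hg38 chromosome 11, 123358428 to 123627774, plus strand) had 97.5 and 132.1 CPM in shSPTLC2 replicates 1 and 2, against 30.8 and 38.4 CPM in shCON replicates 1 and 2, from 1433 and 2027 counts against 456 and 559. Both shSPTLC2 libraries lay well above both shCON libraries. Its mean was 114.8 ± 24.5 CPM in shSPTLC2 and 34.6 ± 5.39 CPM in shCON (SD, n = 2 each). The log2 fold change was 1.73 ± 0.15 (SE), or 3.32-fold, which placed it at rank 90 of 15313 tested genes and rank 44 of 12547 protein-coding ones. These values chose the gene and are given as a description.

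The size of the GRAMD1B difference varied between libraries. Replicate 2 was 1.36 times replicate 1 in shSPTLC2 (95% interval 1.27 to 1.45, counting error only) and 1.25 times in shCON (1.10 to 1.42), so in both groups the replicates differed by more than counting error. With one library left out at a time, the log2 fold change ran from 1.49 (without shSPTLC2 replicate 2) to 1.94 (without shSPTLC2 replicate 1). On log2(FPKM + 1), a scale that understates the change of low genes, it was 1.37.

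**Figure D1:**
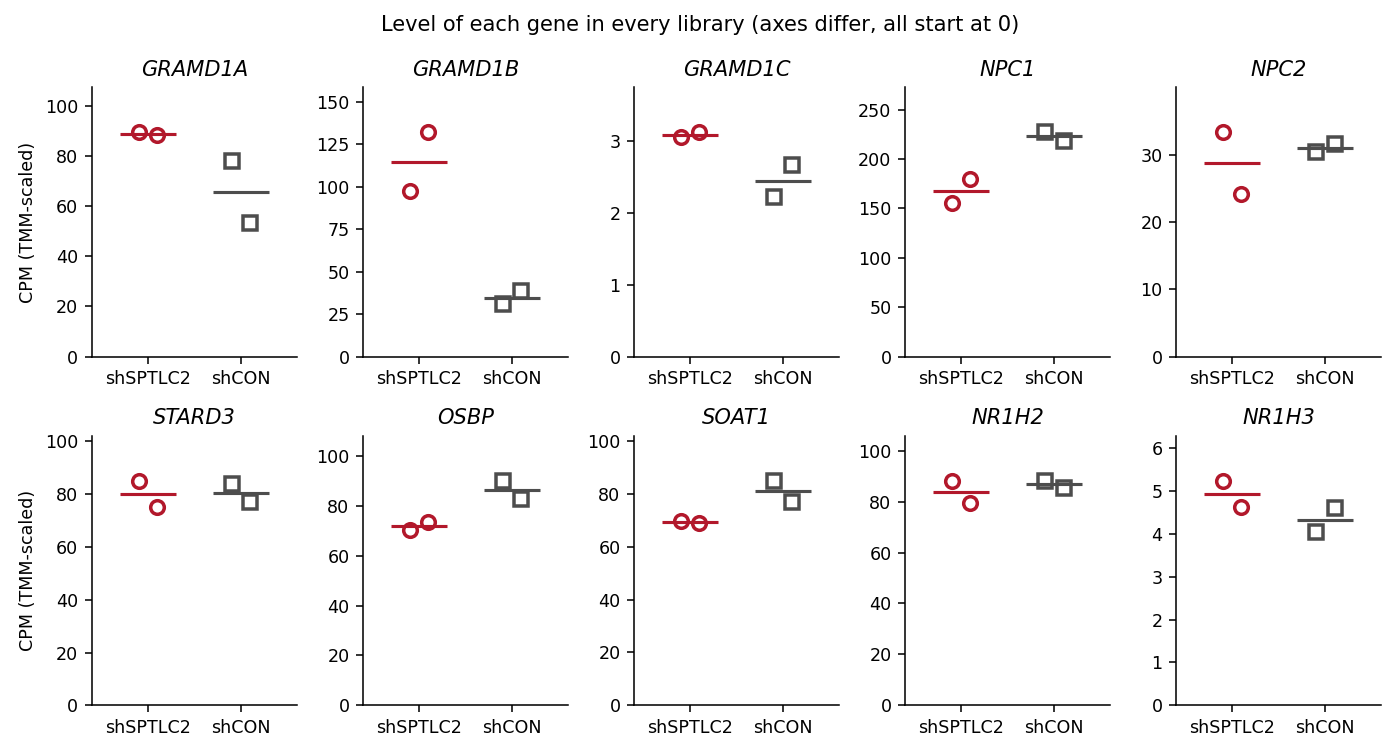
Level of each of the 10 genes in CPM (vertical axes differ and start at 0), with one open symbol per library (circles shSPTLC2, squares shCON) and a bar at the group mean. GRAMD1B lies at 97.5 and 132.1 CPM in shSPTLC2, against 30.8 and 38.4 CPM in shCON, while NPC2, STARD3 and NR1H2 overlap between the groups.

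GRAMD1A encodes Aster-A, the paralog of Aster-B. GRAMD1A (ENSG00000089351, hg38 chromosome 19, 34994784 to 35026471, plus strand) had 89.4 and 88.2 CPM in shSPTLC2 replicates 1 and 2, against 77.8 and 53.4 CPM in shCON replicates 1 and 2. The groups did not overlap, but the shCON libraries lay far apart, replicate 2 holding 0.686 times the level of replicate 1 (95% interval 0.626 to 0.752, counting error only). The log2 fold change was 0.44 ± 0.15 (SE) with a 95% interval of 0.12 to 0.76, and the gene just missed the threshold (edgeR adjusted p = 0.056, 5.4e-07 to 0.31 over 14 alternatives, 5 of which called it). One control library decided the size: the change was 0.72 (edgeR adjusted p = 5.4e-07) without shCON replicate 1 and 0.18 (edgeR adjusted p = 0.31) without shCON replicate 2. GRAMD1A transcripts are 61.9% G or C, against a median of 48.8% over tested genes, and with an offset for transcript GC content its change was 0.25 (edgeR adjusted p = 0.24).

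GRAMD1C encodes Aster-C and had few counts. GRAMD1C (ENSG00000178075, hg38 chromosome 3, 113828182 to 113947174, plus strand) had 45 and 48 counts in shSPTLC2, against 33 and 39 counts in shCON. The groups did not overlap, yet the log2 fold change of 0.34 ± 0.30 (SE) had a 95% interval from -0.31 to 0.98 and did not pass the test (edgeR adjusted p = 0.47). That interval holds both falls and rises, so these libraries do not settle the direction of a GRAMD1C change.

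Per length, the GRAMD1 transcripts of these cells were mostly GRAMD1A, and GRAMD1B made up a larger share of them in shSPTLC2. GRAMD1B was chosen by its rise, so its larger share and part of the higher sum restate that choice and are a description. On the deposited FPKM scale, on which counts are divided by gene length and library depth, GRAMD1B took 29.8% and 36.8% of the GRAMD1 sum in shSPTLC2, against 13.4% and 21.7% in shCON. GRAMD1A took 68.4% and 61.5% in shSPTLC2, against 84.8% and 75.5% in shCON, and GRAMD1C stayed between 1.66% and 2.88%. The sum itself was 21.7 and 23.9 FPKM in shSPTLC2, against 15.5 and 11.8 FPKM in shCON. These shares use the gene lengths of the table, of which that of GRAMD1B, 14863 bases over 18 GENCODE transcripts, is the longest among the 10 members. That of GRAMD1A is 5942 bases, and a shorter GRAMD1B transcript in use would give GRAMD1B a larger share. In CPM, not divided by length, GRAMD1B exceeded GRAMD1A in both shSPTLC2 libraries (97.5 and 132.1 against 89.4 and 88.2). In shCON it did not (30.8 and 38.4 against 77.8 and 53.4). The order of these genes in shSPTLC2 thus depends on the lengths used.

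**Figure D2:**
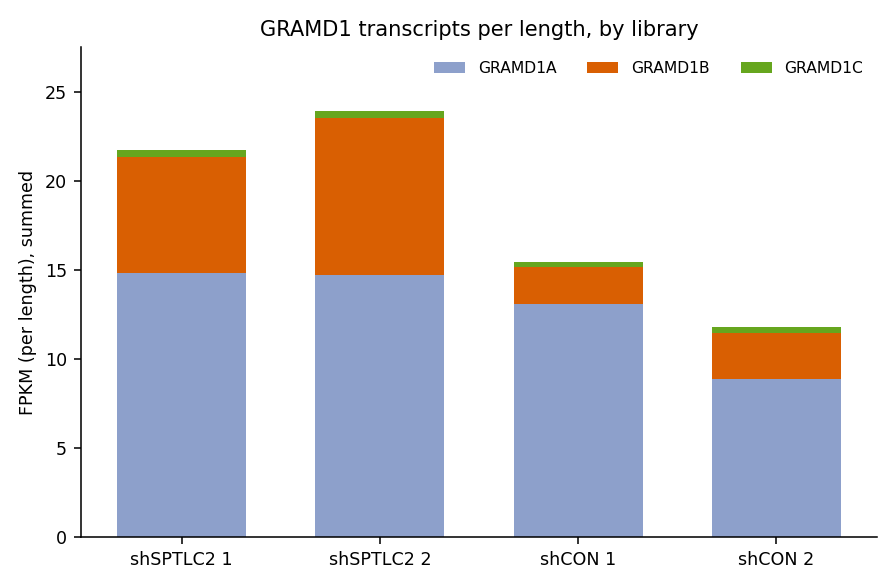
Stacked FPKM of GRAMD1A, GRAMD1B and GRAMD1C in each of the 4 libraries (vertical axis in FPKM from 0). GRAMD1B adds 6.48 and 8.82 FPKM in the shSPTLC2 libraries, against 2.07 and 2.56 FPKM in the shCON libraries, and the total is higher in both shSPTLC2 libraries. GRAMD1B was chosen by its rise, which is part of the higher total.

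Of the 4 nearest tested neighbours of GRAMD1B, 2 on each side, none was called, against 19.4% of all tested genes. They were HSPA8 and CLMP at lower coordinates and SCN3B and ZNF202 at higher ones, with log2 fold changes of -0.21 ± 0.11, 0.24 ± 0.11, 0.66 ± 0.46 and -0.02 ± 0.18 (SE; 0 of 4 called, edgeR adjusted p from 0.127 to 0.96). A count of 0 among 4 is near that share and no result about the neighbours. SCN3B, which encodes a sodium channel subunit and ends 1413 bases away, had only 18 and 21 counts in shSPTLC2, against 13 and 11 in shCON. The one overlapping gene with reads, the pseudogene SF3A3P2 on the other strand, had 3 and 3 counts in shSPTLC2, against 10 and 2 in shCON.

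Protein-coding genes averaging 5 CPM or more were ranked by likeness to GRAMD1B (10265 genes). Those whose level over the 4 libraries lay nearest to it were EFEMP1, L1CAM, GSDMB, KRT81 and GABBR1. Likeness was the Euclidean distance between log2 CPM values centred on each gene's mean, and it was 0.0477 for EFEMP1, which encodes a matrix glycoprotein, and 0.168 to 0.356 for the others. EFEMP1 had 26.2 and 35.0 CPM in shSPTLC2, against 7.82 and 9.61 CPM in shCON. KRT81 has near-identical keratin paralogs, so its counts are uncertain. With 4 libraries in 2 groups, likeness mostly restates a rise of like size, and nothing is said of shared function or control.

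NPC1, the lysosomal membrane protein whose loss causes Niemann-Pick disease type C, was the one member called among the 9 that were tested, and it fell. NPC1 (ENSG00000141458, hg38 chromosome 18, 23506184 to 23586898, minus strand) had 155.6 and 179.7 CPM in shSPTLC2 replicates 1 and 2, against 227.2 and 218.6 CPM in shCON replicates 1 and 2. Every shSPTLC2 value lay below every shCON value, and the means were 167.7 ± 17.0 CPM in shSPTLC2 and 222.9 ± 6.11 CPM in shCON (SD, n = 2 each). The log2 fold change was -0.41 ± 0.11 (SE), with a 95% interval from -0.64 to -0.18, a level 1.33-fold lower in shSPTLC2 (edgeR adjusted p = 0.015; 6.0e-04 to 0.28 over 14 alternatives). The call ended without shSPTLC2 replicate 1 (-0.31, edgeR adjusted p = 0.28), without shSPTLC2 replicate 2 (-0.52, adjusted p = 0.058), and in limma on log2(FPKM + 1) and log2(FPKM + 0.1) (adjusted p = 0.055 and 0.054). The direction was the same in all 14.

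RMC1, on the opposite strand, shares 25624 bases with the NPC1 interval and encodes a subunit of the Mon1-Ccz1 complex of late endosomes. RMC1 had 14.7 and 11.1 CPM in shSPTLC2, against 20.1 and 16.8 CPM in shCON, a log2 fold change of -0.52 ± 0.17 (SE; edgeR adjusted p = 0.046; 0.0029 to 0.37 over 14 alternatives, of which 6 called it). The RMC1 call was lost with shSPTLC2 replicate 1, shSPTLC2 replicate 2 or shCON replicate 1 left out (edgeR adjusted p = 0.081, 0.37 and 0.11). Without a known strand setting, reads in the shared stretch cannot be told apart. Likewise AC020907.4, annotated as antisense within GRAMD1A, had 17 and 22 counts in shSPTLC2, against 2 and 4 in shCON, few beside the 778 to 1353 counts of GRAMD1A.

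NPC2, the soluble partner of NPC1, showed no change beyond its spread. NPC2 (ENSG00000119655, hg38 chromosome 14, 74476192 to 74494177, minus strand) had 33.3 and 24.1 CPM in shSPTLC2, against 30.4 and 31.5 CPM in shCON. The shSPTLC2 libraries lay on either side of the shCON pair, replicate 2 at 0.723 times replicate 1 (95% interval 0.630 to 0.830, counting error only). The log2 fold change was -0.11 ± 0.15 (SE), with a 95% interval from -0.43 to 0.21 (edgeR adjusted p = 0.65), and its sign depended on that pair, at 0.10 without shSPTLC2 replicate 2. Per length, NPC1 stood to NPC2 as 1.27 and 2.03 in shSPTLC2, against 2.03 and 1.89 in shCON, so no shift of their ratio was seen in both shSPTLC2 libraries.

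The carrier genes did not pass the test. OSBP (ENSG00000110048, hg38 chromosome 11, 59574398 to 59616144), which exchanges cholesterol for a phosphoinositide between the endoplasmic reticulum and the Golgi, had 70.4 and 73.6 CPM in shSPTLC2, against 90.1 and 82.7 CPM in shCON. These groups did not overlap. The log2 fold change of OSBP was -0.26 ± 0.11 (SE), with a 95% interval from -0.50 to -0.03 before adjustment (edgeR adjusted p = 0.108), and it was called in 1 of 14 alternatives, without shCON replicate 2 (-0.33, edgeR adjusted p = 0.035). STARD3 (ENSG00000131748, hg38 chromosome 17, 39637065 to 39663484), which moves sterol at contacts of late endosomes with the endoplasmic reticulum, had 85.1 and 75.1 CPM in shSPTLC2, against 84.0 and 77.2 CPM in shCON. The groups overlapped fully, and the log2 fold change of STARD3, -0.01 ± 0.11 (SE), had a 95% interval from -0.25 to 0.23, with a sign that turned with the scaling (0.05 with library totals).

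SOAT1, which makes cholesteryl esters in the endoplasmic reticulum, was slightly lower in shSPTLC2 without passing the test. SOAT1 (ENSG00000057252, hg38 chromosome 1, 179293714 to 179358680) had 69.6 and 68.9 CPM in shSPTLC2, against 84.9 and 77.0 CPM in shCON. The groups did not overlap, and the log2 fold change of -0.23 ± 0.11 (SE) had a 95% interval from -0.46 to 0.01 (edgeR adjusted p = 0.17). None of the 14 alternatives called it (0 of 14).

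The liver X receptor genes showed no change past the test. NR1H2 (ENSG00000131408, hg38 chromosome 19, 50329653 to 50382982), the broadly expressed receptor, had 88.2 and 79.6 CPM in shSPTLC2, against 88.1 and 85.5 CPM in shCON, and the groups overlapped. Its log2 fold change of -0.05 ± 0.11 (SE) had a 95% interval from -0.28 to 0.18 and came to 0.0049 with library totals. NR1H2 transcripts are GC-rich (62.6% G or C), and with the GC-content offset its change was -0.26 (edgeR adjusted p = 0.082). NR1H3 (ENSG00000025434, hg38 chromosome 11, 47248300 to 47269032), known from macrophages and liver, had 77 and 71 counts in shSPTLC2, against 60 and 67 in shCON. In CPM these were 5.24 and 4.63 in shSPTLC2, against 4.05 and 4.60 in shCON, so the groups were only narrowly apart. The log2 fold change of NR1H3 was 0.19 ± 0.25 (SE), with a 95% interval from -0.34 to 0.71. This interval holds both falls and rises, so the direction of an NR1H3 change is not settled in these libraries. Per length, NR1H2 exceeded NR1H3 by 20.3 and 20.8 times in shSPTLC2 and by 26.3 and 22.4 times in shCON.

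**Figure D3:**
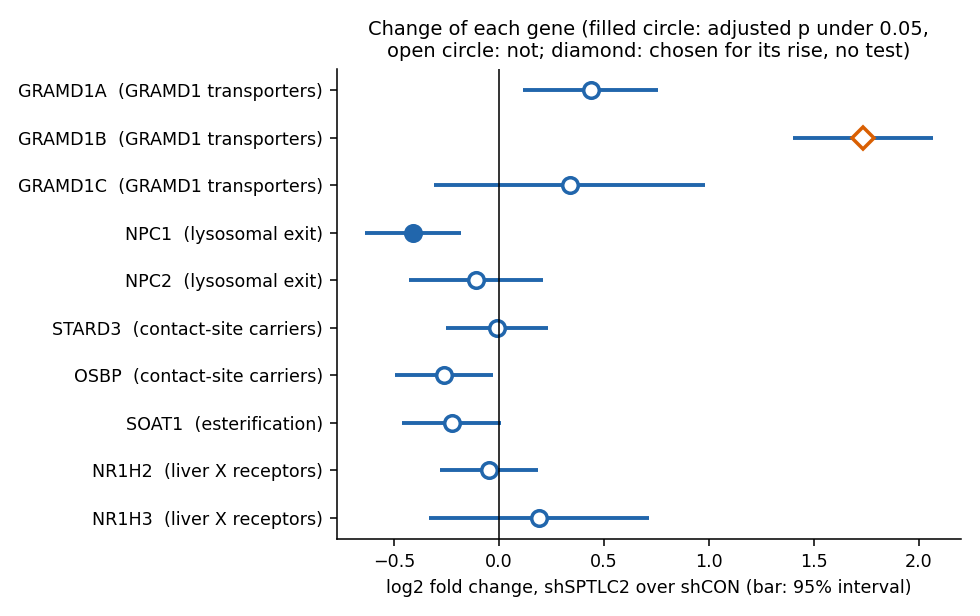
Log2 fold change of each gene, shSPTLC2 over shCON, with its 95% interval from edgeR's fit (filled circle: adjusted p under 0.05, open circle: not; the diamond is GRAMD1B, which has no test). NPC1 is the only filled circle, at -0.41, and the other circles lie between -0.26 and 0.44. GRAMD1B was chosen by its rise in these libraries, so its bar is a description and no test.

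Of the 9 members other than GRAMD1B, the edgeR quasi-likelihood test, adjusted over all tested genes by the Benjamini-Hochberg method, called 1 (NPC1, lower), against 19.4% of all tested genes called in either direction and 9.00% called lower. None of the 9 (0) was called higher, against 10.4% of tested genes. At an unadjusted p under 0.05 there were 3 (GRAMD1A, NPC1 and OSBP). DESeq2 also called none of them higher, and limma-voom called GRAMD1A. The groups did not overlap for 6 of the 9, against 61.5% of tested genes: 3 were higher in shSPTLC2 (GRAMD1A, GRAMD1C and NR1H3), against 31.3% of tested genes, and 3 were lower (NPC1, OSBP and SOAT1), against 30.2%. The median log2 fold change of the 9 was -0.05, against 0.005 over all tested genes, and their median absolute change was 0.23, against 0.27. A share this near the background is no result about the members as a list.

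Per length, the order of the members was led by NR1H2 in both groups, with 22.1 ± 1.55 FPKM in shSPTLC2 and 23.1 ± 0.648 FPKM in shCON (SD, n = 2 each). In shSPTLC2, NPC1 (16.4 ± 1.72 FPKM), STARD3 (15.4 ± 1.31 FPKM) and GRAMD1A (14.8 ± 0.108 FPKM) came next. There the libraries of STARD3 overlapped those of both NPC1 and GRAMD1A, which did not overlap each other, and OSBP followed at 13.0 ± 0.442 FPKM. In the same cells NPC2 (10.3 ± 2.32 FPKM) overlapped both SOAT1 (9.78 ± 0.0420 FPKM) and GRAMD1B (7.65 ± 1.65 FPKM). In shCON, NPC1 came second (22.0 ± 0.741 FPKM), OSBP (15.7 ± 1.05) and STARD3 (15.6 ± 1.04) overlapped, and so did SOAT1 (11.5 ± 0.866), NPC2 (11.2 ± 0.210) and GRAMD1A (11.0 ± 2.97), all in FPKM. GRAMD1B stood apart below them in shCON, at 2.32 ± 0.347 FPKM. NR1H3 and GRAMD1C were last in both groups, with 1.08 ± 0.0912 and 0.392 ± 0.00714 FPKM in shSPTLC2 and 0.95 ± 0.08 and 0.313 ± 0.0388 FPKM in shCON.

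**Figure D4:**
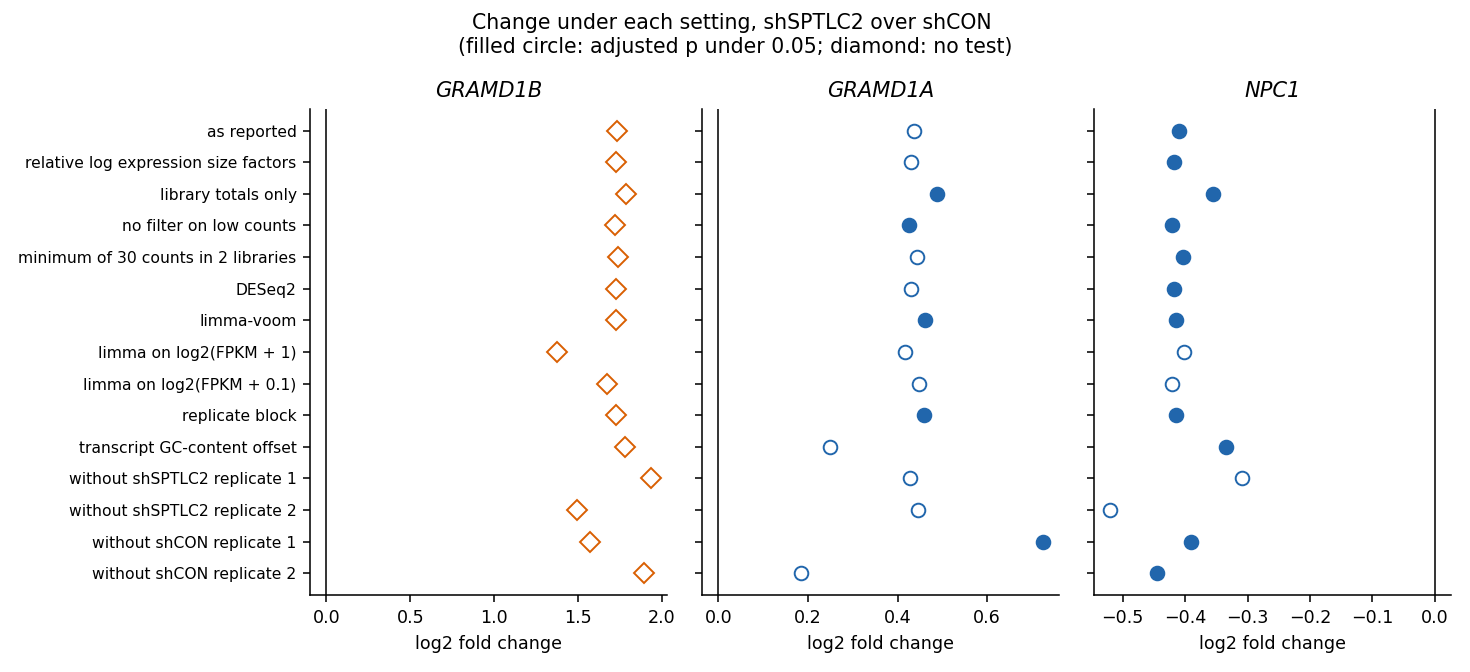
Log2 fold change, shSPTLC2 over shCON, of GRAMD1B, GRAMD1A and NPC1 under the reported setting and 14 alternatives (filled circle: adjusted p under 0.05, open circle: not; diamonds mark GRAMD1B, which has no test). GRAMD1A moves between 0.18 and 0.72 with the shCON library left out, while NPC1 keeps between -0.52 and -0.31.

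Around these 10 genes, 103 other genes of the table, in 10 lists from general knowledge, were compared in the same fit. The lists cover sterol handling and related lipid carriers and lysosomal genes, so not all are sterol genes. Of these 103, 84 were tested, and 7 rose (against 10.4% of all tested genes), 18 fell (against 9.00%) and 59 were not called. Synthesis enzymes accounted for most of the falls: of 20, 0 rose and 11 fell, against 10.4% and 9.00% of all tested genes, with a median log2 fold change of -0.54. Without shSPTLC2 replicate 1 fewer of these enzymes were called lower, and fewer genes were called lower over all tested genes too. HMGCS1, an early enzyme of the pathway, had 30.7 and 33.0 CPM in shSPTLC2, against 91.2 and 95.1 CPM in shCON, a log2 fold change of -1.55 ± 0.12 (SE; edgeR adjusted p = 1.55e-06). ACAT2, the thiolase gene that feeds the pathway, fell by 1.03 on the log2 scale (edgeR adjusted p = 6.02e-05). That enzymes of this pathway fell was already known when the lists were drawn up.

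**Figure D5:**
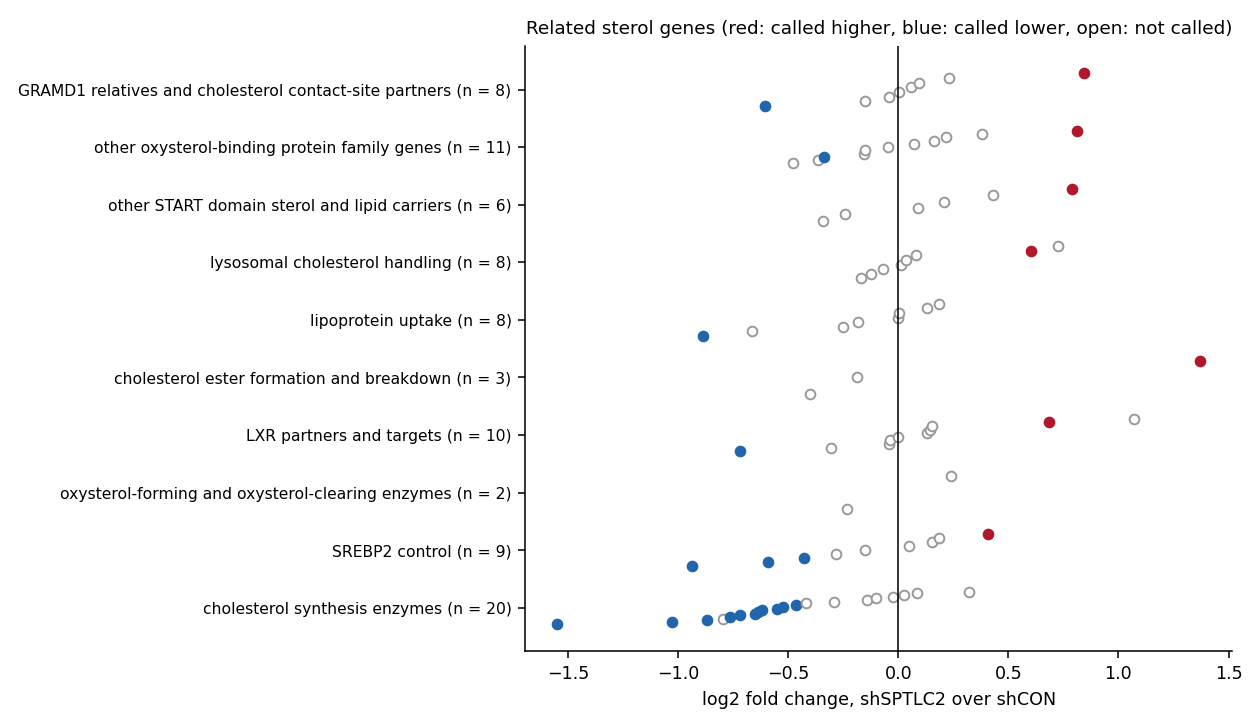
Log2 fold change, shSPTLC2 over shCON, of each tested gene in the 10 related lists (red: called higher, blue: called lower, open: not called; height within a row has no meaning). The synthesis row holds 11 of the 18 called falls, and the transport rows hold few calls on either side of 0. Over all tested genes 10.4% were called higher and 9.00% lower.

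Called genes of SREBP2 control included the following. INSIG1, which retains the SREBP escort in the endoplasmic reticulum, fell by 0.94 on the log2 scale (edgeR adjusted p = 1.9e-04), and RNF139, a ubiquitin ligase gene, fell too (-0.59 ± 0.13; edgeR adjusted p = 0.0047). The RNF139 call was lost with shSPTLC2 replicate 1 left out (adjusted p = 0.11). SCAP, the escort itself, rose by 0.41 ± 0.12 (SE; edgeR adjusted p = 0.026), a call that was lost with shSPTLC2 replicate 1, shSPTLC2 replicate 2 or shCON replicate 2 left out (adjusted p = 0.22, 0.15 and 0.12), with the GC-content offset and on both FPKM scales. SREBF2, which encodes SREBP2, had 217.5 and 229.7 CPM in shSPTLC2, against 224.2 and 208.2 CPM in shCON.

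Of 16 listed liver X receptor partners and targets 10 were tested, and 1 rose, 1 fell and 8 were not called, with a median log2 fold change of 0.06. These counts are near the 10.4% called higher and 9.00% called lower over all tested genes and are no result about the list, and both were 0 without shSPTLC2 replicate 2. ABCA1, the efflux pump that loads cholesterol onto lipoprotein, had 172.3 and 213.5 CPM in shSPTLC2, against 122.8 and 117.2 CPM in shCON, a log2 fold change of 0.69 ± 0.12 (SE; edgeR adjusted p = 0.0011). The call of ABCA1 ended, narrowly, without shSPTLC2 replicate 2 (0.52, edgeR adjusted p = 0.050). ABCG1, another efflux pump, had 5.37 and 12.6 CPM in shSPTLC2, against 4.79 and 3.78 CPM in shCON (edgeR adjusted p = 0.077), and SMPDL3A, a phosphodiesterase-like gene, fell (-0.72 ± 0.19; adjusted p = 0.018), a call lost with either shSPTLC2 library left out (0.13 and 0.12). RXRA and RXRB, the receptor partners, were not called, at 0.15 ± 0.13 and 0.13 ± 0.12.

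The remaining transport lists each held at most 1 rise and 1 fall, against 10.4% called higher and 9.00% called lower over all tested genes. Counts this small are no result about any of these lists. Among 11 tested genes of the oxysterol-binding protein family, OSBPL7 rose (0.81 ± 0.15) and OSBPL10 fell (-0.34 ± 0.11). Among 8 tested contact-site genes, C2CD2L, which encodes a lipid carrier at contacts of the endoplasmic reticulum with the plasma membrane, rose (0.84 ± 0.14) and GRAMD2B, a relative of the GRAMD1 genes without their sterol-binding domain, fell (-0.60 ± 0.17), while VAPA and VAPB, the endoplasmic reticulum anchors that OSBP and STARD3 bind, were not called. Among 6 START domain carriers STARD10 rose (0.79 ± 0.16), and among 8 lysosomal genes TMEM175, an ion channel gene, rose (0.60 ± 0.14). The call of TMEM175 was lost with the GC-content offset. LCAT, which esterifies cholesterol on lipoproteins, had 12.0 ± 1.21 CPM in shSPTLC2 and 4.64 ± 1.31 CPM in shCON (SD, n = 2 each) and rose by 1.37 ± 0.22 on the log2 scale (SE). Neither tested gene of the oxysterol enzymes, CYP27A1 or HSD3B7, was called (0 of 2). Some called genes of the lists were called whichever library was left out. Among them were C2CD2L, OSBPL7 and LCAT (rises) and INSIG1, HMGCS1, IDI1, SQLE and ACAT2 (falls). The share of all called genes that kept their calls in this way is not given here, so this is no result about the lists. Of the others in these transport lists, OSBPL10, GRAMD2B and TMEM175 lost their calls with either shSPTLC2 replicate 1 or replicate 2 left out (edgeR adjusted p = 0.35 and 0.13, 0.17 and 0.12, and 0.12 and 0.058), and STARD10 with shSPTLC2 replicate 1 left out (0.094).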

How the data were processed

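Total RNA was sequenced (NEBNext Ultra kit, per the labels' protocols). One deposited table gives raw counts per Ensembl gene, and the authors' FPKM table equals those counts over gene length and a library factor (relative tolerance 1e-09). HISAT2, StringTie, SAMtools and hg38 are named per the submitters' processing notes. No source used here names the counting program or its strand setting. Of 58735 genes, 58724 matched GENCODE 29.

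Counts of all 4 libraries were tested in R 4.3.3 with edgeR 4.0.16: filterByExpr (minimum count 10, total 15), TMM scaling, a robust quasi-likelihood fit, a two-sided F test without covariates, and Benjamini-Hochberg adjustment over 15313 genes, called under 0.05. CPM are TMM-scaled. An SE is the size of the log2 fold change divided by the root of F. Ratios between replicates carry exact binomial intervals. Alternatives were DESeq2 1.42.0, limma 3.58.1 (voom, and log2 FPKM plus 1 or 0.1), other scalings and filters, a GC offset, a replicate block and each library left out. The test was tried on simulated data. Libraries of a group differed at a chi-square p under 0.05 in 28.4% (shSPTLC2) and 36.7% (shCON) of genes, so neither pair holds the same values; separate cultures are not shown by this.

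The members and lists were chosen with earlier results of these data known. Named are all members, SPTLC2 and ZDHHC15, called list genes (some are not reported here), genes overlapping a member, the 2 tested neighbours on each side of GRAMD1B and the 5 genes nearest it in level. ABCG1, SREBF2, RXRA, RXRB, VAPA and VAPB were added after their values were seen.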

Additional observations from a re-analysis of the deposited data

How the results depend on the processing

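The direction of GRAMD1A, GRAMD1C, NPC1, OSBP, SOAT1 and NR1H3 was kept in all 14 alternatives. That of GRAMD1B was kept too, but the gene was chosen by its rise in these same libraries, so this is no support. Uncalled changes near 0 turned: with library totals STARD3 was 0.0451 and NR1H2 0.0049, and leave-one-out fits spanned -0.36 to 0.10 (NPC2), -0.10 to 0.0761 (STARD3) and -0.12 to 0.0212 (NR1H2). SPTLC2 spanned -0.58 to -0.47. The cause of these shifts was not tested.

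Of all tested genes, 2971 were called (1593 higher, 1378 lower). Library totals gave 1927 higher and 1032 lower and moved the median of all genes to 0.059. Limma on log2(FPKM + 1) gave 1716 (921 and 795) and on log2(FPKM + 0.1) 1719 (920 and 799). Leave-one-out counts ran from 640 to 4027 (413 to 1977 higher, 227 to 2050 lower), being 640 without shSPTLC2 replicate 1 and 994 without shSPTLC2 replicate 2.

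GRAMD1A passed the threshold with library totals, no filter, limma-voom, the replicate block and without shCON replicate 1. The tally of members past it on the higher side, in which GRAMD1B is counted although its choice leaves it no test, was then 2, and 1 to 2 with a library left out. Members called lower were 0 on both FPKM scales and 0 to 2 with a library left out. Contact-site genes called lower were 0 with DESeq2 and on both FPKM scales. In the oxysterol-binding family 2 were higher with library totals, and 0 were lower with library totals, on both FPKM scales and with the GC offset. Lysosomal genes called higher were 2 with library totals and the replicate block. Listed partners and targets of the liver X receptors (named liver X receptor below) do not include NR1H2 and NR1H3. Of these partners and targets, 2 were called higher with no filter, DESeq2 and the replicate block. Those called lower were 2 with relative log expression factors and with the 30-count filter. SREBP2 control genes called higher were 0 on both FPKM scales and with the GC offset.

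With a library left out, calls higher and lower ran from 1 to 2 and 0 to 1 (contact sites), 1 to 2 and 0 to 2 (oxysterol-binding family), 0 to 1 and 0 to 0 (START), 0 to 2 and 0 to 0 (lysosome), 0 to 1 and 1 to 1 (uptake), 1 to 1 and 0 to 0 (esters), 0 to 3 and 0 to 2 (liver X receptor), 0 to 2 and 1 to 3 (SREBP2 control) and 0 to 0 and 6 to 13 (synthesis). The labels do not say that replicate numbers pair libraries, and the deviations of same-numbered libraries had a correlation of -0.00955. The replicate block put NPC1 at an adjusted p of 0.00775 and GRAMD1A at 0.00655 (edgeR). GRAMD1C and NR1H3 had 33 to 77 counts, which limits their precision.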
